A study of Mus musculus with 96 samples.

Results

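The ipsilateral thalamus was compared between injured and sham mice at 29 days post injury (dpi), with both drug arms in one fit. The comparison holds 16 of the 96 RNA-seq libraries of the series, 8 from mice with traumatic brain injury (TBI) and 8 from sham mice. The libraries were taken by region, time and injury label, but the comparison itself was chosen with earlier results of these data known. All mice were male C57BL/6, 8 to 10 weeks old when obtained. TBI was a controlled cortical impact on the left side, and sham mice had a skin incision under anesthesia without craniectomy, so that the sham groups lack the opening of the skull as well as the impact. Each arm held 4 sham and 4 TBI libraries. The vehicle arm (Sham + VH, TBI + VH) received vehicle and the candesartan arm (Sham + CD, TBI + CD) the angiotensin receptor blocker candesartan, in either case as an injection at 6 h and then from an osmotic pump implanted at 24 h that ran until 29 dpi, at 0.1 mg/kg/day for candesartan. The libraries were poly(A)-selected and stranded, and in each group the 4 RNA samples of highest quality had been sequenced. The comparison asks what remained of the response to injury in a region that was not itself struck.

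The thalamus relays sensory and motor signals to the cortex through excitatory neurons whose axons end in the cortical layers. Damage to the cortex cuts these axons, and the thalamic nuclei that project to the damaged area are known for a slow reaction of microglia and astrocytes around neurons that lost their targets. Microglia, the resident macrophages of the brain, keep a homeostatic gene program in health. When they meet dying cells or debris they add a second program, called disease-associated, that runs through the lipid receptor Trem2 and its adaptor Tyrobp and includes Cst7, Itgax, Clec7a and Spp1. In bulk tissue, more cells of a type and more RNA per cell cannot be told apart.

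Libraries held 13596821 to 33713635 counts, with medians of 26359043.5 in the 8 sham and 28528614 in the 8 TBI libraries. The 24 pairs of replicates differed by 6.81 to 31 times the counting noise (chi-square per degree of freedom), so no library was a copy of another of its own group. The thalamic marker Tcf7l2 lay between 216 and 353 CPM (counts scaled to library size) in all 16 libraries. Markers of neighboring tissue varied between libraries. Ttr, made by choroid plexus, ranged from 3.8 to 3530 CPM in sham and from 6.91 to 1320 in TBI libraries, and Slc6a3, the dopamine transporter of midbrain neurons, from 0.392 to 31.4 and from 0.323 to 66.1. The labels do not say that replicates came from separate cages or litters, and the p-values measure the spread between these libraries.

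With 16957 genes tested by edgeR, 0 genes (0%) passed the study's thresholds of a false discovery rate (FDR) below 0.05 together with a log2 fold change of more than 0.32 in either direction for TBI against sham, and the smallest FDR was 0.11. At an unadjusted p below 0.05 there were 575 genes higher (3.39% of those tested) and 534 lower (3.15%) in TBI. DESeq2, applied to the same counts and the same model, called 17 of 15668 genes (0.109%), 11 higher and 6 lower. The 11 higher were Cst7, Itgax, Ccl9, Arl4d, Ccl6, Kcne1l, F3, Lag3, Clec7a, Nfkbia and Fcgr3, and the 6 lower were Lama5, Col27a1, Atp2a3, Itga4, Npsr1 and Zfp36l2. In 13 genes (0.0767%) all 8 TBI libraries lay above all 8 sham libraries, and in 1 gene (0.0059%), Lama5, all 8 lay below. The names that follow therefore describe genes that missed the edgeR threshold, and their FDR is given so that they can be read as such.

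Starts of 4 of the genes higher by DESeq2 are shown, chosen after the search as examples from the 6 that hold 1 of 3 motifs that the microglial transcription factor PU.1, other ETS factors or NF-kappaB read. Arl4d held a PU box and Ccl6 an ETS core and are not shown, and Itgax, Ccl9, Kcne1l and F3 held none of the 3. Each sequence runs 5′ to 3′ on the strand of the gene, from 250 bases before to 50 bases after the RefSeq transcription start (GRCm38.p6). Capitals mark AGGAAGT, an ETS core, in Cst7, the PU box GAGGAA in Clec7a and (on the other strand) in Fcgr3, and the kappaB motif, also on the other strand, in Nfkbia. The windows are chr2:150570165-150570464 (plus strand) for Cst7, chr6:129472730-129473029 (minus strand) for Clec7a, chr1:171059354-171059653 (minus strand) for Fcgr3 and chr12:55492598-55492897 (minus strand) for Nfkbia.
Cst7: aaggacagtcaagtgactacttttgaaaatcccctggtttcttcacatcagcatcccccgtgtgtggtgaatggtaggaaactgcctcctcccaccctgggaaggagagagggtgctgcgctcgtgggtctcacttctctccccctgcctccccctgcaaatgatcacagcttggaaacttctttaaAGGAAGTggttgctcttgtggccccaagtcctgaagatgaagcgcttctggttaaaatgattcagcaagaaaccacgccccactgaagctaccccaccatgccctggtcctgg
Clec7a: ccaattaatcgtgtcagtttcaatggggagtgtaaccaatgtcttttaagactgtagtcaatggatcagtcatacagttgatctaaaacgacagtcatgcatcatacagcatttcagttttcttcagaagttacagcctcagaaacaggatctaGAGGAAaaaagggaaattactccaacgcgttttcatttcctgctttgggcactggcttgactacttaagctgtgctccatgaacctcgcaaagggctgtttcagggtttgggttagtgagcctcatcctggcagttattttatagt
Fcgr3: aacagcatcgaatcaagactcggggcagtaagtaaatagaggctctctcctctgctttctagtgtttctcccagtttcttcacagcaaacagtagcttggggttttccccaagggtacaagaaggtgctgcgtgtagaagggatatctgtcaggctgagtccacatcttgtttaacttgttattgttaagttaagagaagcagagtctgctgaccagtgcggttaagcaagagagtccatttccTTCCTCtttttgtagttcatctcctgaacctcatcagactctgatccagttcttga
Nfkbia: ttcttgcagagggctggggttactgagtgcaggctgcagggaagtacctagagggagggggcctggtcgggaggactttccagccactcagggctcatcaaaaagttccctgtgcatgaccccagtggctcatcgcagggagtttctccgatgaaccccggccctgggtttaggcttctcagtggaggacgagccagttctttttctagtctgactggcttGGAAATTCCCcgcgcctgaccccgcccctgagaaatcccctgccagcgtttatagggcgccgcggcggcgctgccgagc

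The ETS core of Cst7, cystatin F, starts 63 bases before its transcription start, and the PU box of Clec7a, the dectin-1 receptor, 96 bases before. Fcgr3, an activating Fc receptor, has its PU box 6 bases before the start, and Nfkbia, the inhibitor that NF-kappaB induces against itself, has its kappaB motif 29 bases before. RefSeq promoters were found for 10 of the 11 genes higher by DESeq2, and a gene with several near-identical windows, such as Clec7a and Fcgr3, was counted once. On both strands, 3 of these 10 genes held GAGGAA (30%, against 31.3% of all 27025 genes with a promoter), 2 held AGGAAGT (20% against 10.7%), and 1 held the kappaB motif (10% against 0.466%). The PU box was therefore no more common among them than among all genes. In the homeostatic microglial list the PU box was in 8 of 13 genes (61.5%) and the ETS core in 6 of 13 (46.2%), and in the disease-associated list in 9 of 19 (47.4%) and 4 of 19 (21.1%). The PU box and the ETS core share letters and can overlap, and a match describes the sequence only, not binding.

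Several disease-associated microglial genes were many-fold higher in most TBI libraries. Cst7, which inhibits lysosomal proteases and is nearly silent in resting microglia, had 9 reads over the 8 sham and 1073 over the 8 TBI libraries. In replicates 1 to 4 of Sham + VH its CPM were 0, 0, 0.228 and 0.0302, and in those of Sham + CD 0, 0.0764, 0.0354 and 0.0365. In TBI + VH they were 3.82, 2.72, 0.933 and 1.58, and in TBI + CD 0.145, 1.95, 7.07 and 29.7. Thus 7 of 8 TBI libraries lay above every sham library, TBI + CD replicate 1 stayed among the sham values, and TBI + CD replicate 4 was far above the rest. The log2 fold change was 6.74 (SE 1.05, FDR 0.11 by edgeR), which rests on very few sham reads.

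Itgax, the integrin CD11c, also had its highest value in TBI + CD replicate 4 and its lowest TBI value in TBI + CD replicate 1. It had 0.0456 to 0.365 CPM in sham libraries (median 0.225), and 3.49, 1.93, 0.871 and 1.71 CPM in TBI + VH and 0.242, 2.31, 6.01 and 27.1 CPM in TBI + CD replicates 1 to 4 (log2 fold change 4.37, SE 0.78, FDR 0.154). Clec7a, a receptor for fungal glucans that marks reactive microglia, went from at most 0.778 CPM in sham to a median of 1.22 and a maximum of 10.8 CPM in TBI, with 6 of 8 TBI libraries above every sham library (log2 fold change 2.70, SE 0.63, FDR 0.318). Spp1, osteopontin, had 10.1 to 15.9 CPM in sham and 15.1 to 166 CPM in TBI libraries, with 7 of 8 above every sham library (1.47, SE 0.43, FDR 0.529). For Itgax, as for Cst7, all 4 TBI + VH libraries lay above all 4 Sham + VH libraries, and the TBI + CD libraries spread on both sides of the TBI + VH values.

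The next 5 genes, chemokines and surface receptors, were chosen because they were higher, and each missed the edgeR threshold. Ccl9 had 0.46 to 0.957 CPM in sham and 1.33 to 5.58 CPM in TBI libraries, without overlap (log2 fold change 1.61, SE 0.30, FDR 0.157). Ccl6 had 0.354 to 0.875 CPM in sham and 0.821 to 3.67 CPM in TBI (1.505, SE 0.306, FDR 0.255). Both genes encode CC chemokines of myeloid cells and share sequence, and how reads matching both were counted is not given in the sources used here. Lag3, best known as an inhibitory receptor of T cells and also expressed by microglia, had 2.19 to 3.56 CPM in sham and 3.72 to 50.9 CPM in TBI, again without overlap (1.96, SE 0.43, FDR 0.281). The T cell markers Cd3e and Cd8a were at or below 0.121 CPM in every library. Of 6 tested genes of the T cell list 4 were higher and 1 had an unadjusted p below 0.05, Ptprc, a leukocyte gene that microglia also express (0.59, SE 0.18). Fcgr3 had 6.43 to 8.53 CPM in sham and 8.5 to 21.3 in TBI (0.62, SE 0.15, FDR 0.41). Fcgr2b, the inhibitory Fc receptor, had 1.54 to 2.37 CPM in sham and 2.46 to 11.9 in TBI, without overlap (0.99, SE 0.30, FDR 0.551).

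**Figure D1:**
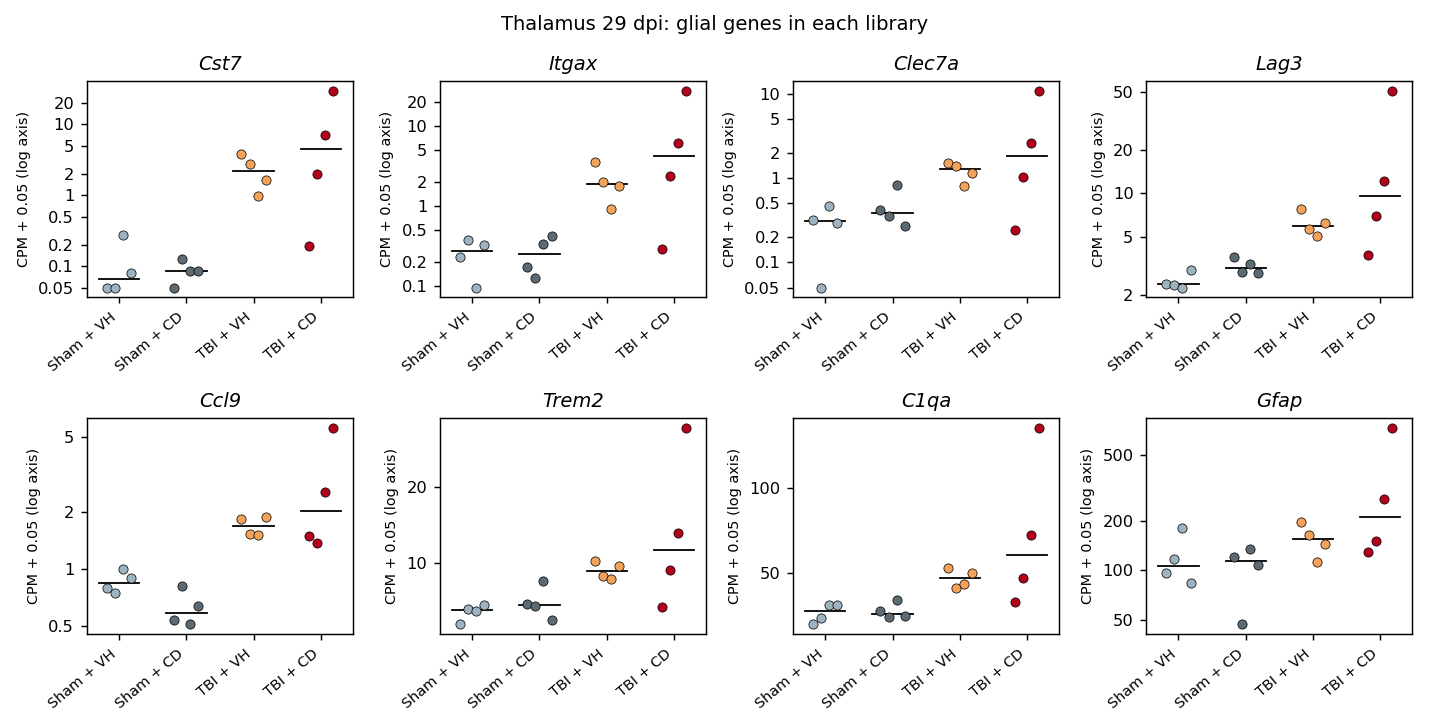
Expression of 8 glial genes in the 16 thalamic libraries at 29 dpi, in CPM plus 0.05 on a log axis, with 1 point per library and a line at the group median. For Cst7, Itgax, Lag3, Ccl9, Trem2 and C1qa all 4 TBI + VH libraries lie above all 4 Sham + VH libraries, while the TBI + CD libraries spread more widely, for Cst7 from 0.145 to 29.7 CPM.

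As a list, disease-associated microglial genes had 21 of 22 tested members higher in TBI, 14 of them at an unadjusted p below 0.05 (background 3.39%) and 0 called, with a median log2 fold change of 0.30 against -0.0024 over all genes. Another 3 of the 25 members were too low to test. The mean log2 CPM of the list was 3.31 to 3.62 in sham and 3.55 to 5.55 in TBI libraries, and 7 of 8 TBI libraries exceeded every sham. The number at an unadjusted p below 0.05 was 10 when TBI + CD replicate 4 was left out and 15 when replicate 1 of that group was. It was 9 without Sham + VH replicate 1, Sham + CD replicate 2 or Sham + CD replicate 4. Lyz2, lysozyme, had 4.25 to 7.8 CPM in sham and 6.13 to 41.5 CPM in TBI (1.02, SE 0.33), and Cd68, a lysosomal glycoprotein, 6.03 to 7.93 and 5.46 to 26.9 CPM (0.62, SE 0.24). Apoe, an apolipoprotein that astrocytes also make and the member with the most reads, was 1600 to 1930 CPM in sham and 1810 to 3400 CPM in TBI (0.23, SE 0.11, FDR 0.749). With TBI + CD replicate 4 left out the log2 fold changes were 0.56 for Lyz2, 0.32 for Cd68 and 0.11 for Apoe.

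Genes of the homeostatic microglial list were higher in nearly every member. Of 20 members, all tested, 19 were higher, 17 at an unadjusted p below 0.05 and 0 called, with a median log2 fold change of 0.37. Their mean log2 CPM was 4.07 to 4.23 in sham and 4.23 to 5.46 in TBI libraries, and every TBI library was above every sham library, TBI + CD replicate 1 only just. The count was 17 with TBI + CD replicate 4 left out and 18 with replicate 1 left out. Csf1r, the receptor for the growth factor microglia need to survive, had 67.5 to 74.2 CPM in sham and 76 to 144 CPM in TBI, without overlap (log2 fold change 0.37, SE 0.096, FDR 0.448). P2ry12, the purinergic receptor that reactive microglia lose, had 21.3 to 26.6 CPM in sham and 20.6 to 34.4 CPM in TBI (0.23, SE 0.085, FDR 0.697). The size of the effect varied within the list. Tmem119 had a log2 fold change of 0.21, Siglech 0.23, Cx3cr1 0.27, P2ry13 0.19 and Sall1 -0.012, while Fcrls had 0.83. The list also holds Trem2 (0.87) and Tyrobp (0.82), through which the disease-associated program runs.

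The lipid receptor and its adaptor, both in the homeostatic list, were also higher in most TBI libraries. Trem2 had 5.62 to 8.39 CPM in sham and 6.62 to 34.6 CPM in TBI (0.87, SE 0.26, FDR 0.529), and Tyrobp 8.32 to 9.94 and 9.13 to 44.1 CPM (0.82, SE 0.25, FDR 0.555). In both genes 7 of 8 TBI libraries exceeded every sham library, and the exception was TBI + CD replicate 1. Fcrls, an Fc receptor-like gene of microglia, had a log2 fold change of 0.83 (SE 0.23), Ly86, a partner of a Toll-like receptor, 0.71 (SE 0.20), and Selplg, a selectin ligand, 0.21 (SE 0.054). Leaving out TBI + CD replicate 4 lowered the log2 fold changes of Trem2 to 0.53, of Tyrobp to 0.49 and of Spp1 to 0.79, and narrowed their SE to 0.12, 0.11 and 0.17. It gave 0.54 for Fcrls, 0.47 for Ly86 and 0.58 for Fcgr2b. Dock2, a signaling protein of leukocytes, had 4.11 to 5.44 CPM in sham and 4.7 to 8.99 CPM in TBI (0.36, SE 0.096, FDR 0.448).

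Complement genes that microglia make were higher with them. In the complement list 15 of 18 tested members were higher, with a median log2 fold change of 0.28. An unadjusted p below 0.05 was found for 6, among them C1qa, C1qb and C1qc, which also count in the homeostatic list. In the vehicle arm 10 of 18 were higher, 0 at that p (background 0.832%), and in the candesartan arm 17, with 9 at that p (background 4.55%). C1qa, part of the molecule that starts the classical pathway and also in the homeostatic list, had 33.1 to 40.3 CPM in sham and 39.7 to 163 CPM in TBI (0.76, SE 0.23, FDR 0.545, and 0.45 without TBI + CD replicate 4). C3ar1, the receptor for the C3a fragment, had 0.889 to 2.01 and 1.63 to 6.17 CPM (0.88, SE 0.25), and Itgam, a subunit of complement receptor 3, 17.6 to 21.3 and 18.4 to 30.9 CPM (0.29, SE 0.075). C4b, which astrocytes and oligodendrocytes also make, had 12.1 to 27 CPM in sham and 20.6 to 58.8 CPM in TBI (0.68, SE 0.21, FDR 0.584), and its closely related copy C4a makes the split of reads between both uncertain. C3 itself overlapped widely, at 1.22 to 4.24 CPM in sham and 1.19 to 5.32 CPM in TBI (0.44, SE 0.29).

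Most genes of antigen presentation and of the interferon response were higher. Of 14 MHC class I genes 12 were higher and 3 had an unadjusted p below 0.05 (median log2 fold change 0.15), and of 7 class II genes 6 were higher and 3 reached it (median 0.22). B2m, the light chain of class I, had 59.5 to 68.1 CPM in sham and 66.4 to 147 CPM in TBI (0.34, SE 0.13), and Cd74, the class II invariant chain, 2.01 to 4.24 and 2.61 to 13.6 CPM (0.76, SE 0.30), and without TBI + CD replicate 4 they had 0.19 and 0.45. In the vehicle arm the list medians were 0.046 for each class, with 0 members higher at an unadjusted p below 0.05 (background 0.832%). In the candesartan arm they were 0.28 for class I and 0.70 for class II, with 3 and 5 members (background 4.55%). Of 18 type I interferon response genes 13 were higher and 2 had an unadjusted p below 0.05, with a median of 0.08. In both MHC groups TBI + CD replicate 4 was the top library for most members, 12 of 14 and 6 of 7, where it was the highest of the 16 libraries in 17.5% of all genes.

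Markers of cells that enter from the blood were low or overlapped between the groups. Of 9 tested markers of infiltrating and border macrophages 6 were higher and 0 had an unadjusted p below 0.05. In the vehicle arm 2 of 9 were higher (median -0.15). In the candesartan arm 9 of 9 were (median 0.25), 1 of them at that p (background 4.55%). The CPM of all list members, tested or not, summed to 20.4 to 29.2 in sham and 19.7 to 37.7 in TBI libraries, highest in TBI + CD replicate 4. Mrc1, the mannose receptor of border macrophages, was 2.99 to 5.15 CPM in sham and 2.88 to 7.39 CPM in TBI. Neutrophil markers summed to at most 4.56 CPM in any library, and B cell markers to at most 1.01 CPM. Markers of red blood cells were higher in 5 of 5 tested members with a median log2 fold change of 1.15 and 0 at an unadjusted p below 0.05. The medians were -0.098 in the vehicle arm and 2.61 in the candesartan arm, where 4 of 5 members were higher at an unadjusted p below 0.05 (background 4.55%). The list mean was 2.04, 4.38, 4.15 and 3.9 log2 CPM in TBI + CD replicates 1 to 4 and 0.127 to 2.59 in Sham + CD, and its part in the other results was not tested.

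Genes of astrocyte homeostasis were higher by small amounts. Of 15 genes of astrocyte homeostasis 14 were higher and 9 had an unadjusted p below 0.05, with a median log2 fold change of 0.10, and 7 of 8 TBI libraries had a list mean above every sham library (8.38 to 8.48 log2 CPM in sham, 8.48 to 8.64 in TBI). Gjb6 and Gja1 encode connexins, which couple astrocytes through gap junctions. Gjb6 had 70 to 87.1 CPM in sham and 81.1 to 101 CPM in TBI (0.23, SE 0.051, FDR 0.281), and Gja1 245 to 287 and 263 to 347 CPM (0.19, SE 0.050, FDR 0.448). The glutamate transporter Slc1a2, the member with the most reads, had 1400 to 1730 and 1470 to 1930 CPM (0.10, SE 0.064).

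Reactive astrocyte genes were mixed, with 11 of 20 higher and 3 at an unadjusted p below 0.05. Gfap, the intermediate filament of reactive astrocytes, had 47 to 180 CPM in sham and 112 to 738 CPM in TBI, with 3 of 8 TBI libraries above every sham library (1.01, SE 0.36, FDR 0.668). Its log2 fold change was 0.37 in the vehicle arm and 1.65 in the candesartan arm, and 0.58 over both arms without TBI + CD replicate 4. Serpina3n, a protease inhibitor, had 13.5 to 29.1 CPM in sham and 21.6 to 181 CPM in TBI (1.13, SE 0.41, FDR 0.668), with 0.27 in the vehicle arm, 1.99 in the candesartan arm and 0.57 without the same library. Vim, vimentin, overlapped fully, at 16.2 to 43.7 CPM in sham and 17.9 to 57.4 CPM in TBI (0.11, SE 0.22). Outside the lists, Bmpr1b, a receptor for bone morphogenetic proteins, had 22.6 to 25.6 CPM in sham and 25.4 to 30 CPM in TBI, with 7 of 8 TBI libraries above every sham library (0.25, SE 0.041, FDR 0.145).

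**Figure D2:**
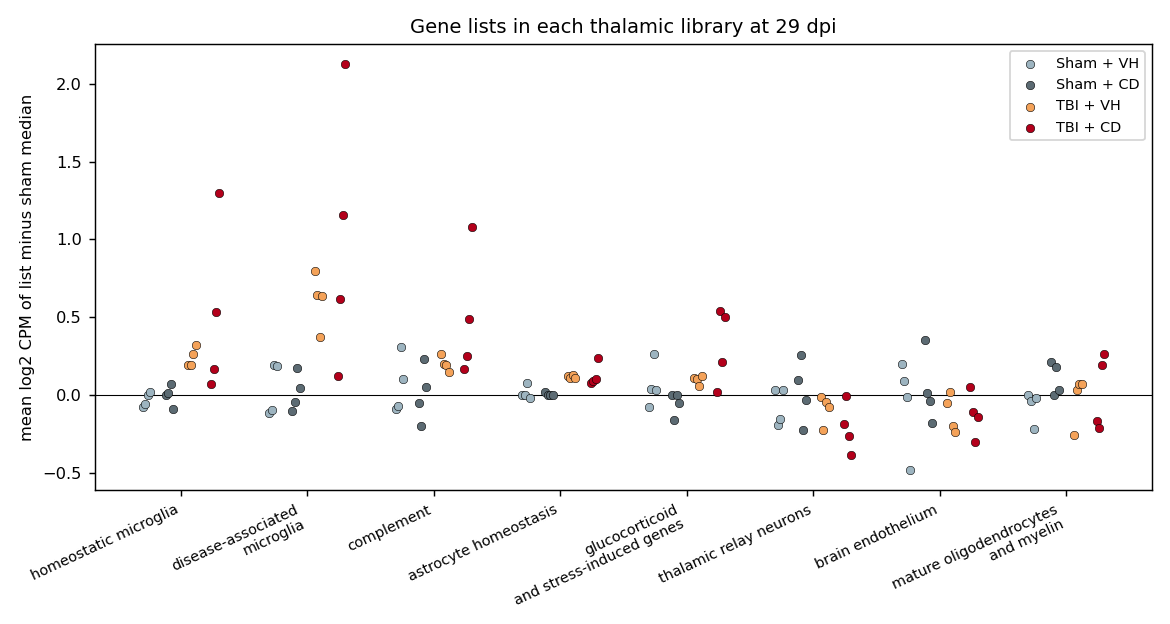
Mean log2 CPM of the tested members of 8 gene lists in each of the 16 thalamic libraries at 29 dpi, less the median of the 8 sham libraries, with 1 point per library colored by group. Microglial lists reach highest in TBI + CD replicate 4 (5.46 log2 CPM for homeostatic and 5.55 for disease-associated genes before subtraction), whereas oligodendrocyte and endothelial lists overlap between groups.

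Genes that glucocorticoids and cell stress induce were taken as another list. It was written with earlier results of these data known, and those results had named its members Arl4d, Nfkbia and Ddit4. Their values are therefore no separate support for the list. Of 21 tested members 18 were higher and 9 had an unadjusted p below 0.05, with a median log2 fold change of 0.20. The median was 0.053 in the vehicle arm, with 2 members higher at that p (background 0.832%). In the candesartan arm the median was 0.33, with 12 members higher at that p (background 4.55%). Over both arms there were 7 at that p with TBI + CD replicate 4 left out, and 11 with replicate 1 left out. Arl4d, a small GTPase of the ARF family, had 4.25, 4.97, 4.65 and 3.59 CPM in Sham + VH, 5.5, 4.66, 4.1 and 6.28 in Sham + CD, 5.49, 7.88, 8.09 and 6.77 in TBI + VH, and 4.83, 12.6, 12.9 and 15.3 CPM in TBI + CD replicates 1 to 4. In TBI + CD 3 of the 4 libraries were above all others, and the fourth lay among the shams (0.92, SE 0.19, FDR 0.255). The same 3 libraries had the highest means of the red blood cell list, and the part of that list in the Arl4d and Sgk1 values was not tested. Nfkbia had 12.9 to 17.3 CPM in sham and 16.4 to 27.5 CPM in TBI (0.41, SE 0.098, FDR 0.318). Sgk1, a kinase induced by corticosteroids, had 46.1 to 72 CPM in sham, 57.9 to 73.6 CPM in TBI + VH and 50.1, 149, 120 and 138 CPM in TBI + CD (0.72, SE 0.20, FDR 0.473). Ddit4, an inhibitor of mTOR, had 23.4 to 33.8 CPM in sham and 29.4 to 40 CPM in TBI (0.26, SE 0.058, FDR 0.281), with 0.34 in the vehicle arm and 0.19 in the candesartan arm. Tsc22d3, a glucocorticoid-induced leucine zipper protein, had a log2 fold change of 0.17 (SE 0.069) and the clock gene Per1 0.19 (SE 0.085), while Fkbp5, the glucocorticoid receptor chaperone, covered 22.1 to 31.5 CPM in sham and 21.7 to 28.5 CPM in TBI.

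Other genes higher in TBI belonged to no list. Kcne1l, a small potassium channel subunit on the X chromosome, had 6.41 to 8.07 CPM in sham and 8.06 to 10.8 CPM in TBI (0.37, SE 0.071, FDR 0.157). Mat2a, which makes S-adenosylmethionine, had 179 to 192 CPM in sham and 194 to 217 CPM in TBI (0.15, SE 0.028, FDR 0.157), a narrow difference without overlap. F3, tissue factor, had 44.1 to 57 and 53.8 to 73.8 CPM (0.33, SE 0.069, FDR 0.262). Hnmt, which inactivates histamine, had 13.6 to 16.3 CPM in sham and 16.5 to 19.8 CPM in TBI (0.22, SE 0.048, FDR 0.281), also without overlap. Further non-overlapping genes were AB347871, Mir99ahg, Rps12, Rps4x, Snx5 and Tob2, and of these Rps12 and Rps4x are ribosomal protein genes with many processed copies in the genome, so that their counts are uncertain.

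Single genes were lower in TBI, each by a small amount. Lama5, a laminin alpha chain of endothelial basement membranes, had 21.9, 22.3, 25.7 and 28.9 CPM in Sham + VH, 26.4, 22.4, 24.3 and 22.9 in Sham + CD, 19.2, 19.7, 19.2 and 17 in TBI + VH, and 18.5, 19.8, 19.9 and 21.1 CPM in TBI + CD. All 8 TBI libraries were below all 8 sham libraries (-0.34, SE 0.061, FDR 0.154). The list of fibroblast and collagen genes had 11 of 16 members higher (median 0.12, with 1 higher and 0 lower at an unadjusted p below 0.05). In the vehicle arm 6 of 16 were higher (median -0.12), and in the candesartan arm 15 of 16 (median 0.42). Col27a1, a fibrillar collagen outside that list, had 29.9 to 47.6 CPM in sham and 21.7 to 32.3 CPM in TBI (-0.53, SE 0.12, FDR 0.281). Itga4, the alpha 4 integrin, had 8.45 to 15.6 and 7.81 to 12.8 CPM (-0.51, SE 0.12, FDR 0.318), and Heg1, an endothelial transmembrane protein, 26.2 to 36.7 and 25.1 to 29.3 CPM (-0.28, SE 0.063, FDR 0.281). Vegfa, the vascular growth factor, had 76 to 90.4 CPM in sham and 68.8 to 79.5 CPM in TBI (-0.18, SE 0.039, FDR 0.281).

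Among 20 endothelial genes 16 were lower and 3 had an unadjusted p below 0.05 (background 3.15%), with a median log2 fold change of -0.11. Slco1c1, the thyroxine transporter of the blood-brain barrier, had 33.6 to 58.5 CPM in sham and 30.2 to 40.1 CPM in TBI (-0.36, SE 0.10, FDR 0.494), and Bsg, basigin, 373 to 437 and 363 to 399 CPM (-0.10, SE 0.035). Choroid plexus genes were lower in 20 of 20 members with a median of -1.44 (-2.41 in the vehicle and -0.32 in the candesartan arm), and 3 had an unadjusted p below 0.05. The list means of 3 sham libraries were 4.63, 5.3 and 5.47 log2 CPM and those of the other 5 lay between 0.936 and 1.77, and the median sums were alike at 387 CPM in sham and 372 CPM in TBI. Their summed level was 342 to 6430 CPM in sham and 357 to 2390 CPM in TBI libraries, and their part in the endothelial values was not tested.

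Neuronal genes of the thalamus were mostly lower by small amounts. Of 20 genes of thalamic relay neurons 19 were lower and 4 had an unadjusted p below 0.05, with a median log2 fold change of -0.14. In the vehicle arm 9 of the 20 were higher with a median of -0.021, and in the candesartan arm 1 of 20 with a median of -0.23, a difference between arms that was not tested for the list. Lef1, a transcription factor of relay neurons, had 64.4 to 114 CPM in sham and 63.2 to 76.7 CPM in TBI (-0.29, SE 0.11), and Tcf7l2, a related factor, 276 to 353 and 216 to 334 CPM (-0.14, SE 0.081). Prox1, a homeodomain factor from the list of hippocampal and cortical neurons, had 51.4 to 70.9 CPM in sham and 46.4 to 55.5 CPM in TBI (-0.29, SE 0.061, FDR 0.262). That list summed to 540 to 830 CPM in sham and 496 to 694 CPM in TBI libraries, and its part in the Prox1 values was not tested. Sham hippocampal libraries at 29 dpi, scaled within that region, had 33.1 to 51.4 CPM of Prox1. Npsr1, the neuropeptide S receptor of midline thalamus, had 4.61 to 7.97 and 3.51 to 5.49 CPM (-0.52, SE 0.12, FDR 0.318), and Atp2a3, a calcium pump of the endoplasmic reticulum, 14 to 19 and 10.7 to 14.3 CPM (-0.33, SE 0.074, FDR 0.281). Of 20 general synaptic and neuronal genes 19 were lower and 3 had an unadjusted p below 0.05 (median -0.085, with -0.018 in the vehicle and -0.14 in the candesartan arm), among them Rbfox3, the NeuN antigen, at 132 to 164 CPM in sham and 126 to 145 CPM in TBI (-0.13, SE 0.042, FDR 0.603). Zfp36l2, which promotes decay of messenger RNA, had 21.8 to 33.1 and 18.3 to 23.9 CPM (-0.34, SE 0.079, FDR 0.318). The long non-coding RNA Malat1 had 630 to 885 CPM in sham and 457 to 799 CPM in TBI (-0.19, SE 0.068, FDR 0.668), with all 4 TBI + CD libraries and no TBI + VH library below every sham library.

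Habenular genes, from the nucleus next to the thalamus, were lower in 15 of 15 members with a median of -0.30 and 0 at an unadjusted p below 0.05, and dopamine and midbrain genes were higher in 13 of 15 with a median of 0.48 (0.092 in the vehicle and 0.90 in the candesartan arm) and 1 at that p. With the mean of either list or of the choroid plexus list as a covariate the number of genes called was 1 (Cst7) for the midbrain list, 0 for the habenula and 3 (Ccl9, Cst7 and Itgax) for the choroid plexus. Genes of myelin, oligodendrocyte precursors, immediate early response, cholesterol synthesis, heat shock and pericytes had 0 members at an unadjusted p below 0.05 in TBI, with list medians between -0.068 and 0.058. Mbp, a myelin protein, covered 3740 to 5620 CPM in sham and 3820 to 5810 CPM in TBI, and Snap25, a synaptic protein, 1890 to 2630 and 1960 to 2340 CPM. Among 18 tested genes of the axon injury response 11 were higher and 2 had an unadjusted p below 0.05, with a median of 0.032. The list mean was 5.1 to 5.22 log2 CPM in sham and 5.14 to 5.35 in TBI libraries. It lay above every sham library in 6 TBI libraries, in TBI + VH replicate 4 only just (5.22). TBI + VH replicate 1 (5.14) and TBI + CD replicate 2 (5.19) lay within the sham range. The list member Stmn2 was 430 to 534 CPM in sham and 423 to 529 CPM in TBI.

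The injury effect was then taken within each arm. The vehicle arm had 0 genes called (0%), 419 at an unadjusted p below 0.05 and a smallest FDR of 1. The candesartan arm had 0 called (0%), 1549 at an unadjusted p below 0.05 and a smallest FDR of 0.213, and DESeq2 called 0 genes in the first and 12 in the second. The interaction of injury with candesartan had 0 genes called (0%) and 577 at an unadjusted p below 0.05, with 0 by DESeq2, so no gene was shown to respond differently between arms. Over all 16957 genes the log2 fold changes of the arms, which share no library, had the same sign in 54.1% and a Pearson r of 0.132. Over the 42 genes of both microglial lists 36 were higher in both arms (85.7% against 27.1% of all genes), given as a description because genes of 1 cell type share their libraries.

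More microglial genes were without overlap in the vehicle arm than in the candesartan arm. In 11 of 20 homeostatic and 7 of 22 disease-associated genes all 4 TBI + VH libraries lay above all 4 Sham + VH libraries, where 1.08% of all genes did. In the candesartan arm this held for 4 and 5 genes, where 2.12% of all genes did. By the size of the effect the order was the other way, with list medians of 0.23 and 0.12 in the vehicle arm and 0.51 and 0.51 in the candesartan arm. At an unadjusted p below 0.05, 1 homeostatic gene was higher in the vehicle arm (background 0.832%) and 17 in the candesartan arm (background 4.55%), which does not show that the arms differ. Fitted on its own 8 libraries, the vehicle arm had 12 homeostatic genes at that p and the candesartan arm 15, so the counts of 1 and 17 depend on the fit. The separate fits had their own spread, filter and scaling factors, and which of these moved the counts was not tested. The interaction had an edgeR FDR of 0.999 for each of Trem2, Tyrobp, Cst7 and Itgax.

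**Figure D3:**
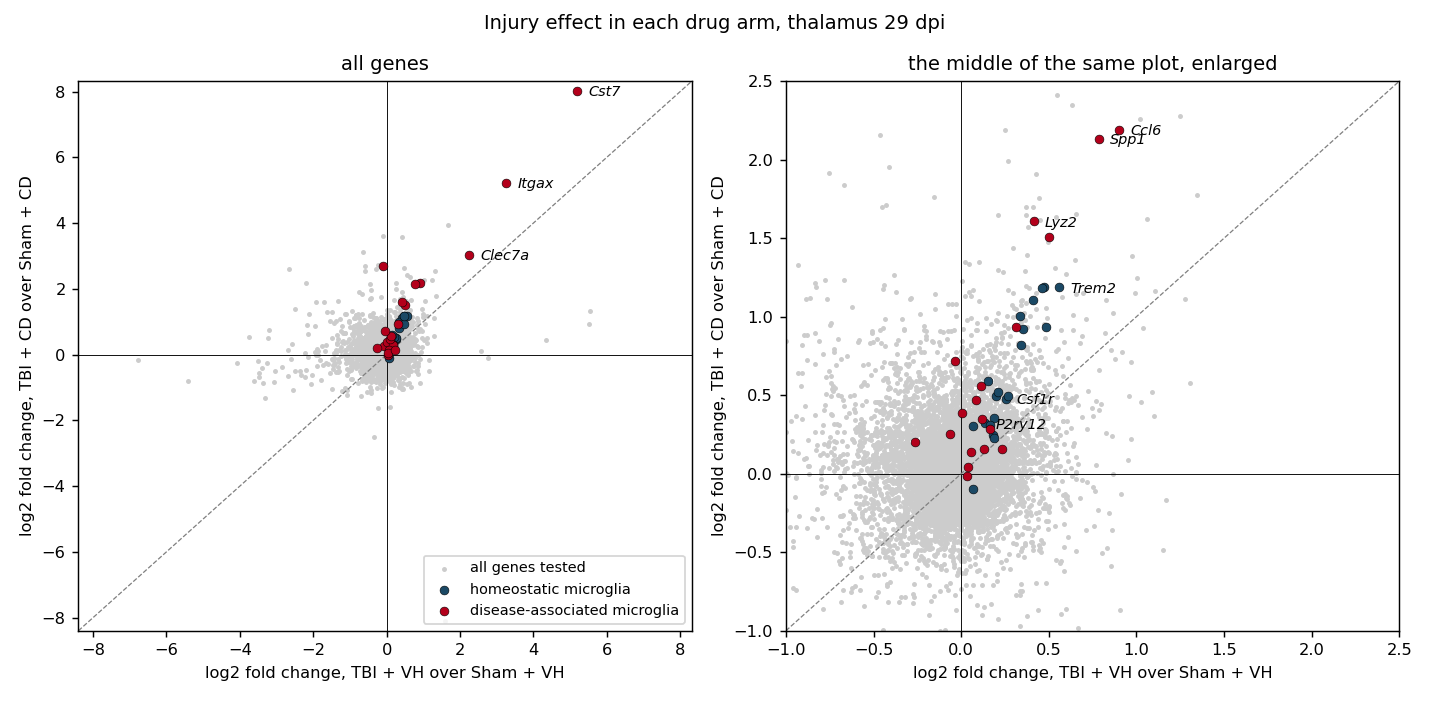
Log2 fold change of TBI over sham in the candesartan arm (vertical) against the vehicle arm (horizontal) for 16957 genes, with microglial genes in color, the dashed line marking equal effects and the right panel enlarging the middle. Most microglial genes lie in the upper right, above the dashed line, led by Cst7 at 5.20 and 8.02.

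In both microglial lists the spread was widest among the TBI + CD libraries. TBI + CD replicate 4, with 18553235 counts, was the highest of all 16 libraries in 19 of 20 homeostatic and 19 of 22 disease-associated genes (17.5% of all genes), and TBI + CD replicate 1, with 20533435 counts, was the lowest of the 8 injured libraries in 10 of 20 and 12 of 22 (13.8% of all genes). The list mean of disease-associated genes was 3.55, 4.04, 4.58 and 5.55 log2 CPM in TBI + CD replicates 1 to 4. Leaving out replicate 4 gave 4 genes called by edgeR across both arms, Ccl9, Cst7, Itgax and Lag3, and leaving out replicate 1 gave 3, Arl4d, Cst7 and Itgax. Cst7 alone was called without TBI + CD replicate 2, and Heg1 alone without Sham + VH replicate 2, while each of the other 12 libraries left 0 genes called. Replicate 4 also had the highest Gfap (738 CPM), macrophage marker sum (37.7 CPM) and collagen gene sum (401 CPM) of the 16 libraries, and the lowest sum of relay neuron genes (4330 CPM). Its list means of hippocampal and cortical neurons (4.66 log2 CPM, against 3.17 to 3.79) and of choroid plexus (4.22, against 1.09 to 3.26) were above those of the other 7 TBI libraries, and their part in its microglial values was not tested.

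The thalamus at 3 dpi, from a separate cohort that was dosed by injection alone and had no pump, had 163 genes called for the same contrast (0.972% of 16762), 162 of them higher. Of these 162 genes 151 were tested at 29 dpi, and 144 were higher (95.4%, against 48.7% of all genes) with 92 at an unadjusted p below 0.05 (60.9%), at a median log2 fold change of 0.36 against 0.67 at 3 dpi. The difference of the injury effect between both times was called in 3 of 17172 genes (0.0175%), Mki67, Pbk and Top2a, with 470 genes at an unadjusted p below 0.05, and all 3 were lower at 29 dpi. These genes belong to dividing cells. Mki67 had 0.535 to 1.09 CPM in sham and 0.553 to 1.17 CPM in TBI at 29 dpi (log2 fold change -0.042, SE 0.17) and 0.287 to 0.975 and 1.69 to 3.99 CPM at 3 dpi (2.16, SE 0.21), a difference of -2.20 (SE 0.27, FDR 9.76e-05). Top2a differed by -2.01 (SE 0.34, FDR 0.0101) and Pbk by -2.61 (SE 0.44, FDR 0.0101), and Pbk was too low at 29 dpi to be tested there, at 0.0532 to 0.387 CPM in all libraries. Levels at each time were scaled within that time only.

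No microglial gene passed the test of the difference between times. The median of the homeostatic list was 0.37 at 29 dpi and 0.56 at 3 dpi, and that of the disease-associated list 0.30 and 0.29. Some genes had like effects, as Tyrobp (0.82 at 29 dpi, 0.84 at 3 dpi), C1qa (0.76 and 0.78), Trem2 (0.87 and 0.72), Fcgr3 (0.62 and 0.60) and Csf1r (0.37 and 0.46). Others had lower log2 fold changes at 29 dpi, as Olfml3 (0.37 and 1.04), Tmem119 (0.21 and 0.64), Aif1 (0.35 and 0.80), Ly86 (0.71 and 1.15) and Cd68 (0.62 and 1.04). A few had higher ones. At 3 dpi Cst7 had 0.161 to 0.61 CPM in TBI against at most 0.0917 CPM in sham, and Itgax 0.161 to 0.647 against at most 0.253 CPM, both too low to be tested at 3 dpi alone, and the log2 difference of 29 dpi from 3 dpi was 3.64 (SE 1.99) for Cst7 and 3.16 (SE 1.02) for Itgax, with an FDR of 1 for each. Spp1 had 12 to 15.7 CPM in TBI at 3 dpi (0.21, SE 0.083) and differed by 1.26 (SE 0.45, FDR 1), and Lag3 by 1.41 (SE 0.46, FDR 1). C4b and Gfap, of other lists, had higher values at 3 dpi, at 1.81 and 1.56 at 3 dpi, with differences of -1.12 (SE 0.29, FDR 0.677) and -0.55 (SE 0.43, FDR 1).

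The hippocampus, which lies under the impact, had 258 genes called at 29 dpi (1.53% of 16832), 253 of them higher. Of these 253 genes 239 were tested in the thalamus, and 203 were higher there (84.9%) with 85 at an unadjusted p below 0.05 (35.6%), at a median of 0.24 against 0.66. Both regions were dissected from the same cohort, which mice gave both libraries is not given in the sources used here, and the fit treated all 32 libraries as separate. The injury effect differed between both regions in 14 of 17528 genes (0.0799%), 13 lower in the thalamus and 1 higher, with 849 at an unadjusted p below 0.05. The 13 were P4ha3, Cd44, Ggta1, Anxa5, Siglec1, C3, Flnc, Vim, Klk6, Anxa2, S1pr3, Col27a1 and St14, and the other was Hnmt.

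Of these 14 genes 4 are in the reactive astrocyte list, Cd44, Ggta1, S1pr3 and Vim, and C3 is in the complement list. Cd44, a hyaluronan receptor, had a log2 fold change of -0.066 (SE 0.097) in the thalamus and 1.05 (SE 0.13) in the hippocampus, a difference of -1.11 (SE 0.16, FDR 0.00112). C3 differed by -2.45 (SE 0.38, FDR 0.00131) and Vim by -1.39 (SE 0.26, FDR 0.0234). P4ha3, which hydroxylates collagen, differed by -1.05 (SE 0.13, FDR 3.45e-05), Ggta1, a galactosyltransferase, by -1.01 (SE 0.15, FDR 0.00112), Anxa5, an annexin, by -0.42 (SE 0.065, FDR 0.00131), and Siglec1, a sialic acid receptor of macrophages, by -2.62 (SE 0.41, FDR 0.00131). Col27a1 was lower after injury in the thalamus (-0.53, SE 0.12) and higher in the hippocampus (0.59, SE 0.18, FDR 0.127), a difference of -1.10 (SE 0.22, FDR 0.0429), and Hnmt differed by 0.36 (SE 0.074, FDR 0.0429). Over 20 alternatives St14 kept its call in 3, Hnmt in 5, Anxa2, S1pr3 and Col27a1 in 12 each and Vim in 19, with an FDR of up to 0.122 for Hnmt.

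No gene of the microglial lists was among the 14. Clec7a had a log2 fold change of 2.70 in the thalamus and 2.97 in the hippocampus (difference -0.27, SE 0.74), Itgax 4.37 and 3.90 (0.46, with an SE of 1), Trem2 0.87 and 0.59 (0.29, SE 0.28) and C1qa 0.76 and 0.62 (0.13, SE 0.26), each with an FDR of 1 for the difference. The SE was larger in the thalamus in each case, for Trem2 0.26 against 0.094. Lyz2 was higher by 2.30 in the hippocampus and by 1.02 in the thalamus (difference -1.29, SE 0.40, FDR 0.584), and P2ry12 had 0.23 in the thalamus and 0.038 in the hippocampus (difference 0.19, SE 0.11, FDR 1).

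**Figure D4:**
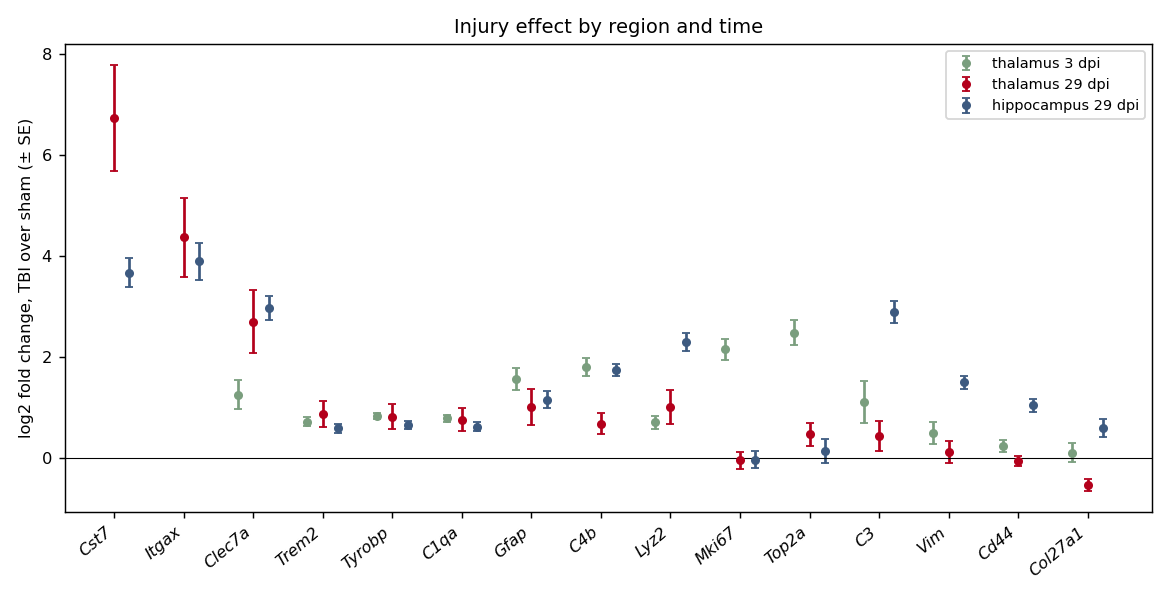
Log2 fold change of TBI over sham (point) with its SE (bar) for 15 genes in the thalamus at 3 dpi, the thalamus at 29 dpi and the hippocampus at 29 dpi, 8 against 8 libraries each, with drug arm as a covariate. Trem2, Tyrobp and C1qa sit at like heights in all 3 sets, Mki67 and Top2a are high at 3 dpi only, and C3, Vim and Cd44 are highest in the hippocampus. Cst7 and Itgax were not tested at 3 dpi.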

How the data were processed

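The authors sequenced poly(A) RNA as stranded paired-end libraries, aligned reads to mm10 with MapSplice and counted reads per gene with HTSeq 0.9.1. The deposited values are raw counts per gene and library, not normalized, and the gene annotation and the handling of reads that match several genes are not given in the sources used here. The deposited columns were matched to the 4 groups by name.

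From the counts, edgeR 4.0.16 (R 4.3.3) was run on the 16 thalamic libraries at 29 dpi: filterByExpr on the 4 groups, TMM factors, and a two-sided quasi-likelihood F test of injury with drug arm as a covariate. P-values were adjusted by Benjamini-Hochberg over all genes tested. SE is the log2 fold change divided by the root of F. The same fit with interaction gave the effects per arm, and a joint fit of 32 libraries gave the differences between times and regions. CPM used TMM factors, and list means log2 CPM with a prior count of 2. DESeq2 1.42.0 and limma 3.58.1 were alternatives. The scripts were tested on simulated data.

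The gene lists and the comparison were chosen with earlier results of these data known. Genes were named if they were among the 8 of smallest p in a direction with a mean of 1 CPM or more, the most abundant member of a list, called in a difference test, or named in those earlier results; others named, including DESeq2 calls, non-overlapping genes and further list members, were chosen after their values were seen. At the lowest depth, 13596821 counts, levels near 1 CPM rest on few reads and carry a large counting error. Results for some genes are not reported here.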

Additional observations from a re-analysis of the deposited data

Results flagged for a closer look

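One library stood apart from the rest of its group in 39 of the 154 groups of 8 looked at (70 genes and 7 lists). The measure was the gap to its nearest neighbor against Dixon's limit, which about 1 in 20 groups pass for independent normal values. The genes were taken as CPM without a log and share their libraries, so this rate is no measure for the 39. In 31 of the 39 the library that stood apart was TBI + CD replicate 4. Among microglial genes it had 29.7 CPM for Cst7, 27.1 for Itgax, 10.8 for Clec7a, 5.58 for Ccl9, 50.9 for Lag3, 21.3 for Fcgr3, 11.9 for Fcgr2b, 144 for Csf1r, 34.6 for Trem2, 44.1 for Tyrobp, 26.9 for Cd68, 41.5 for Lyz2, 8.99 for Dock2, 166 for Spp1, 53.4 for Fcrls and 25.8 for Ly86. Among complement and antigen presentation genes it had 163 CPM for C1qa, 6.17 for C3ar1, 147 for B2m and 13.6 for Cd74. It had 738 CPM for Gfap, 181 for Serpina3n and 3400 for Apoe. It also stood apart in Ttr at 1320 CPM, and in AB347871 at 79.6, Rps12 at 10.5, Rps4x at 102 and Snx5 at 96.6 CPM. By list it had mean log2 CPM of 5.46 for homeostatic microglia, 3.94 for complement and 8.64 for astrocyte homeostasis.

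The remaining 8 were single values of other libraries. Sham + VH replicate 3 had 0.228 CPM of Cst7 and a mean of 8.48 log2 CPM for astrocyte homeostasis. Sham + CD replicate 3 had 8.39 CPM of Trem2 and 31.4 CPM of Slc6a3. Sham + VH replicate 4 had 72 CPM of Sgk1, Sham + VH replicate 2 had 57 CPM of F3 and 76 CPM of Vegfa, and TBI + CD replicate 1 had 25.1 CPM of Heg1.

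Injury effects that differed by the test itself were those of Mki67 (-2.20), Pbk (-2.61) and Top2a (-2.01) between the thalamus at 29 dpi and at 3 dpi. Between thalamus and hippocampus at 29 dpi they were those of P4ha3 (-1.05), Cd44 (-1.11), Ggta1 (-1.01), Anxa5 (-0.42), Siglec1 (-2.62), C3 (-2.45), Flnc (-1.47), Vim (-1.39), Klk6 (-1.47), Anxa2 (-0.92), S1pr3 (-0.84), Col27a1 (-1.10), St14 (-1.05) and Hnmt (0.36).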

How the results depend on the processing

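Main counts were recomputed under 30 alternatives for injury across both arms and 21 for each other comparison. The interaction and the vehicle arm kept 0 genes under all 21. Across both arms the 0 genes became 17 with DESeq2, 1 with the midbrain covariate, 3 with the choroid plexus covariate and 0 to 4 when 1 library was left out, and stayed 0 under the others, among them limma voom with quality weights, RLE factors, no filter and, chosen after seeing the data, robust estimation. The candesartan arm gave 12 with DESeq2 and 0 to 13 with 1 library left out (13 without TBI + CD replicate 1). The difference from 3 dpi had 3 genes, 5 with DESeq2 and 3 to 7 with 1 library left out (7 without TBI + CD replicate 4). The difference from the hippocampus had 14, 26 with DESeq2 and 9 to 32 with 1 library left out (9 without Sham + CD replicate 4 or TBI + CD replicate 1, 32 without TBI + CD replicate 4). The cause of these shifts was not tested.

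List counts at an unadjusted p below 0.05 were recomputed after seeing the data. Leaving out 1 library gave 16 to 19 for homeostatic microglia (17), 9 to 16 for disease-associated microglia (14), 6 to 9 for complement (6), 7 to 10 for astrocyte homeostasis (9) and 7 to 12 for stress-induced genes (9). In the vehicle arm alone, with 8 libraries, they were 7 for disease-associated microglia, 5 for astrocyte homeostasis and 4 for stress-induced genes, and in the candesartan arm alone 8 for disease-associated microglia and 3 for astrocyte homeostasis.

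Of 2368 values for 80 genes 13 changed sign, in 5 genes. Mki67 was 0.024 with the choroid plexus covariate, 0.024 in the candesartan arm alone, 0.011 without Sham + VH replicate 4, 0.0070 without TBI + VH replicate 3, 0.017 without Sham + CD replicate 4 and 0.040 when TBI + CD replicate 2 was dropped, and ranged from -0.13 to 0.040 over all left-out libraries. Vim was -0.017 with voom, -0.082 in the vehicle arm alone, -0.0028 when TBI + VH replicate 1 was dropped and -0.023 when TBI + CD replicate 4 was, and ranged from -0.023 to 0.22 over all left-out libraries. C3 was -0.037 and Cd44 0.0049 in the vehicle arm alone, and Ttr 0.50 with the choroid plexus covariate, which holds Ttr itself.

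Libraries with the same replicate number did not deviate together (correlations from -0.32 to 0.315, and 3 of 16 libraries closest to their own number), and nothing says that a number marks a shared mouse. With a replicate block 0 genes were called across both arms. The difference tests had 3 and 12 genes under the block, where Anxa2, St14 and Vim missed the threshold. With 8 against 8 libraries of this spread, effects of the size of Trem2 missed the threshold.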

Other observations

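Genes of the renin-angiotensin system, on which candesartan acts, went both ways with injury, and the list as a whole was not tested. Of 10 tested members 5 were higher and 5 lower, 1 had an unadjusted p below 0.05, and the median log2 fold change was 0.0073. The median was -0.076 in the vehicle arm and 0.11 in the candesartan arm. The member at that p was Agt, angiotensinogen, which astrocytes make and which is also in the astrocyte list, at 0.19 (SE 0.064). Inhibitory and reticular thalamic neuron genes had 9 of 14 tested members higher, with a median of 0.13 beside the -0.14 of relay neuron genes. The list's mean log2 CPM was 5.04 to 5.61 in sham and 4.7 to 5.84 in TBI libraries, so that the groups overlapped. Hypothalamic neuropeptide genes were higher in 10 of 12 tested members with a median of 0.45 and summed to 83.8 to 413 CPM in sham and 75.9 to 471 CPM in TBI.

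Among cell cycle genes 9 of 13 tested members were higher with a median of 0.035, against 0.42 at 3 dpi. Genes of the p53 response had 7 of 12 higher and a median of 0.012.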
